A study of Oncorhynchus mykiss with 24 samples.

Results

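The glycolytic enzymes followed here were 86 spots of an array of expressed sequence tags (ESTs, cDNA clones from salmonid fish), chosen because their description names an enzyme of glycolysis. The terms searched were glyceraldehyde-3-phosphate dehydrogenase (GAPDH), fructose-bisphosphate aldolase, enolase, pyruvate kinase, triosephosphate isomerase, phosphoglycerate, glucose-6-phosphate isomerase and L-lactate dehydrogenase. They found 86 of 16067 EST spots, each with its own identifier. The search used the descriptions and no measured value, but it was set up with earlier results of these data known. The spots were 28 for GAPDH, 15 for aldolase, 15 for enolase, 7 for phosphoglycerate mutase, 6 for triosephosphate isomerase, 6 for pyruvate kinase, 3 for phosphoglycerate kinase, 3 for the B chain of lactate dehydrogenase and 2 for glucose-6-phosphate isomerase. The term phosphoglycerate also found 1 EST for D-3-phosphoglycerate dehydrogenase, which opens the synthesis of serine and is not a step of glycolysis.

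RNA of 48 whole rainbow trout embryos was hybridized to 24 arrays, with 1 embryo in the Cy3 and 1 in the Cy5 channel. Embryos were female or male, carried OSU/CW or OSU/OSU at a locus for the rate of embryonic development, and were taken at 15, 19 or 28 days post fertilization (dpf), with 4 embryos in each of the 12 combinations. CW stands for the allele of the fast Clearwater line and OSU for that of the slow Oregon State University line, and both are clonal lines. All embryos came from 1 family of repeated backcrossing to the OSU line, so OSU/CW embryos were heterozygous and OSU/OSU embryos homozygous at the locus. The stages correspond to eyed embryos at 15 dpf, embryos that flex the tail at 19 dpf and the start of hatching at 28 dpf. The pair of embryos on an array shared sex and age and differed in genotype, so a comparison of ages or sexes is also one of different arrays.

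Glycolysis breaks glucose down to pyruvate and yields ATP without oxygen, and lactate dehydrogenase turns pyruvate into lactate when the demand is high. Vertebrates carry several genes for many of these enzymes, and in mammals some are named after the tissue that uses them most: aldolase A, beta-enolase and phosphoglycerate mutase 2 are the muscle forms. Fast skeletal muscle of fish relies on glycolysis for bursts of swimming. Salmonids have additional gene copies from a genome duplication, and cDNA spots do not always tell near-identical copies apart, so each value below belongs to a spot and the isoform name is that of its description.

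A level is the normalized log2 intensity of 1 EST in 1 embryo. It can be compared between embryos but not between ESTs, whose probes differ. Of the 86 spots, 78 could be tested, because they were above the 90th percentile of the negative control spots in at least 16 of 48 embryos and were usable on 2 or more arrays for every combination of sex and age. The others were CA052584 (aldolase C), CB509700 (beta-enolase), CB502402 (GAPDH), CB497792 (phosphoglycerate mutase 2), CB502757 (phosphoglycerate mutase 1), CA060075 (pyruvate kinase R/L), and CA061188 and CB494706 (triosephosphate isomerase). Of these, CB494706 was detected in 46 embryos and was left out for spots marked as poor. Signal over local background rose with age, with a median over the 16 embryos of 1.52 at 15 dpf, 1.73 at 19 dpf and 2.45 at 28 dpf. No member spot was saturated in any embryo. Where fewer than 16 values of an EST are given at an age, the missing ones were poor spots.

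Most of the glycolytic ESTs were brighter at hatching than in eyed embryos. Between 15 and 28 dpf 56 of 78 rose and 1 fell at a false discovery rate (FDR) of 0.05 in the limma fit, where 37.6% of all 11651 ESTs tested were called, 19.1% as higher and 18.4% as lower. The median log2 difference was 1.14 over the members and 0.02 over all ESTs tested. From 15 to 19 dpf 14 members rose and none fell, against 2.63% called among all ESTs (2.35% higher and 0.283% lower). This count was 9 without background subtraction, where 2.54% of all ESTs were called, 3 with arrays normalized only within themselves (0.824%), 8 without array 11 and 9 without array 40. From 19 to 28 dpf 47 rose and 1 fell, against 16.4% called (8.05% higher and 8.33% lower), and when arrays were normalized only within themselves 28 rose and 5 fell while 41.2% of all ESTs were called and their median shifted to -0.61. The share of members called in either direction was then about that of all ESTs. Most member calls were still rises, and the calls of all ESTs were not split by direction in that setting. For 50 of the 56 ESTs that rose (89.3%), the larger part of the log2 change came in the 9 days after 19 dpf rather than in the 4 days before, as for 63.3% of all 2229 ESTs that rose. The levels of all embryos at 28 dpf lay above those of all embryos at 15 dpf for 27 members, which was the case for 2.39% of all ESTs, and 0 members lay wholly below, as 0.403% of all ESTs did. From 15 to 19 dpf 2 members were wholly above (0.154% of all ESTs), and from 19 to 28 dpf 13 were (0.833%) and 0 were wholly below (0.154%).

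**Figure D1:**
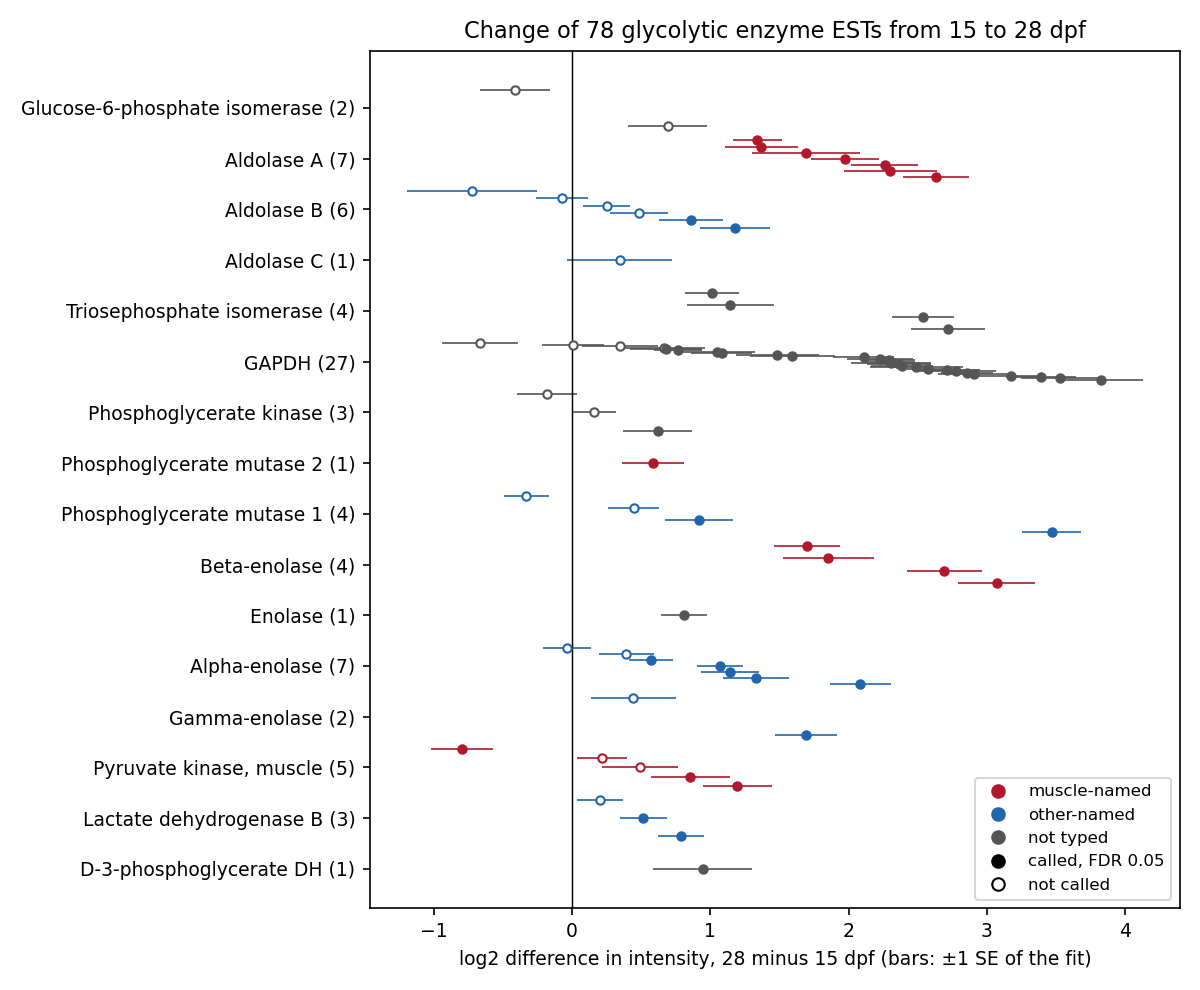
Log2 difference in intensity between 28 and 15 dpf (x axis, bars ±1 SE of the limma fit) for the 78 tested ESTs, 1 point each, in rows by enzyme in the order of the pathway with the number of ESTs in brackets. Colours separate names of muscle forms, names of other forms and names without a form, and filled points were called at FDR 0.05. All 7 aldolase A and 4 beta-enolase points lie above 1, while aldolase B lies between -0.72 and 1.18, and phosphoglycerate kinase and glucose-6-phosphate isomerase lie between -0.41 and 0.69.

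The plot of changes by enzyme sets ESTs whose description names a muscle form against the others. Of the 17 ESTs named as a muscle form 14 rose and 1 fell, with a median difference of 1.69. They include the ESTs for the muscle isozyme of pyruvate kinase, among them the 1 that fell. Of the ESTs that name another form 12 of 23 rose, with a median of 0.52. Of those that name no form, mainly GAPDH, 30 of 38 rose, with a median of 1.85. An EST that was dim at 15 dpf could be tested on the strength of its later signal alone. The count over all tested members was therefore also split by detection at 15 dpf. The counts by form were not split in this way. Of the 17 members detected in all 16 embryos of 15 dpf, 7 rose, where 8.2% of all ESTs detected alike did. Of the 31 detected in 9 to 15 embryos 25 rose and 1 fell (16.3% of all such ESTs rose), and of the 29 detected in 1 to 8 embryos 23 rose (27.6%). The 1 member detected in 0 embryos at 15 dpf also rose, as 73.8% of such ESTs did.

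The rise was seen in both sexes and both genotypes. Within OSU/CW females 50 of the 78 members rose from 15 to 28 dpf, against 11.8% of all ESTs. Within OSU/OSU females 45 rose, against 8.44%, within OSU/CW males 37, against 5.26%, and within OSU/OSU males 37, against 5.48%. For 32 members the rise was called in each of these 4 combinations (2.91% of all ESTs), and for 62 the difference was above 0 in all 4 (30.8%). Between 15 and 19 dpf the same split left 3, 2, 5 and 2 rises, against 0.506%, 0.412%, 1% and 0.0772%.

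Glucose-6-phosphate isomerase, which makes fructose 6-phosphate from glucose 6-phosphate, was dim and did not pass the test. The levels of CA060235 ran from 9.95 to 11.40 at 15 dpf with a median of 10.59 (n = 14) and from 9.44 to 12.92 at 28 dpf with a median of 11.31 (n = 14), so the ages overlapped fully. The difference was 0.69 ± 0.29 (SE) with a limma adjusted p of 0.0534. It ran from 0.38 without array 33 (adjusted p = 0.288) to 0.98 without array 37 (adjusted p = 0.00705), passed the test also without array 13 (0.75, adjusted p = 0.0413) or 38 (0.91, adjusted p = 0.00793), and was 0.0929 with normalization within arrays only (adjusted p = 0.849). The other EST, BU965649, had a difference of -0.41 ± 0.26.

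Aldolase splits fructose 1,6-bisphosphate into a pair of triose phosphates, and its A and B forms differed in these embryos. All 7 ESTs for aldolase A rose from 15 to 28 dpf, by 1.34 to 2.63 on the log2 scale. Aldolase B, in mammals the form of liver and kidney, rose for 2 of 6 ESTs, CA037942 by 1.18 and CB493962 by 0.86. The 1 tested EST for aldolase C, the form of brain in mammals, had a difference of 0.34 ± 0.38.

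The brightest aldolase A EST, CA062911, was detected in all 48 embryos. Its levels were 11.65 to 12.76 at 15 dpf with a median of 12.27 (n = 14), 12.11 to 13.15 at 19 dpf with a median of 12.71 (n = 12), and 13.17 to 13.89 at 28 dpf with a median of 13.63 (n = 12). Every embryo of 28 dpf was above every embryo of both earlier ages. The rise from 15 to 28 dpf was 1.34 ± 0.18, or 2.53-fold (limma adjusted p = 5.85e-07). Of this 0.83 ± 0.18 came after 19 dpf (adjusted p = 0.00191). The brightest aldolase B EST, CB502483, had medians of 13.32 at 15 dpf, 13.29 at 19 dpf and 13.54 at 28 dpf. Its embryos overlapped over the whole range, from 12.60 to 14.01 at 15 dpf and from 13.07 to 13.80 at 28 dpf, and the difference was 0.25 ± 0.17 (adjusted p = 0.256). With plain background subtraction it was 0.62 (adjusted p = 0.0273), and with normalization within arrays only -0.159 (adjusted p = 0.63). The aldolase B EST with the widest spread was CA043730, singled out after its values were seen. At 19 dpf both embryos of array 15 were at 7.81 and 8.36, below background, and the other 10 at 12.20 to 13.53, and at 15 dpf its levels were 13.24 to 14.11.

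Triosephosphate isomerase interconverts both triose phosphates so that each can go on to pyruvate, and all 4 tested ESTs rose from 15 to 28 dpf, by 1.01 to 2.72. CB493768 had levels of 9.32 to 12.37 with a median of 11.04 at 15 dpf, of 11.08 to 12.96 with a median of 12.29 at 19 dpf and of 13.18 to 14.20 with a median of 13.77 at 28 dpf (n = 16 each). All embryos of 28 dpf lay above the rest. The rise was called in both steps, 1.12 ± 0.27 to 19 dpf (limma adjusted p = 0.00995) and 1.60 ± 0.27 after it (adjusted p = 3.48e-05). CA056752, named because it was not above background in any embryo of 15 dpf, was detected in 7 embryos at 19 dpf and in 16 at 28 dpf. Its mean level was 12.13 at 28 dpf and 9.62 at 15 dpf, a 5.71-fold difference. This fold starts from a signal that did not count as detected. The EST could be tested only through its signal at the later ages, and 73.8% of all such ESTs were called as rising.

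GAPDH, which oxidises glyceraldehyde 3-phosphate and passes the electrons to NAD, is the most often spotted enzyme of the group, with 27 tested ESTs. Of these 23 rose from 15 to 28 dpf and none fell, 17 of them at least 4-fold and 4 at least 8-fold. The counts by fold were made with the main background correction only. The median difference was 2.30. Rises were called for 11 ESTs between 15 and 19 dpf and for 20 between 19 and 28 dpf, when 1 fell. The ESTs did not move as 1 gene: 6 of the 27 changed by less than 2-fold, and the differences ran from -0.67 to 3.82.

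**Figure D2:**
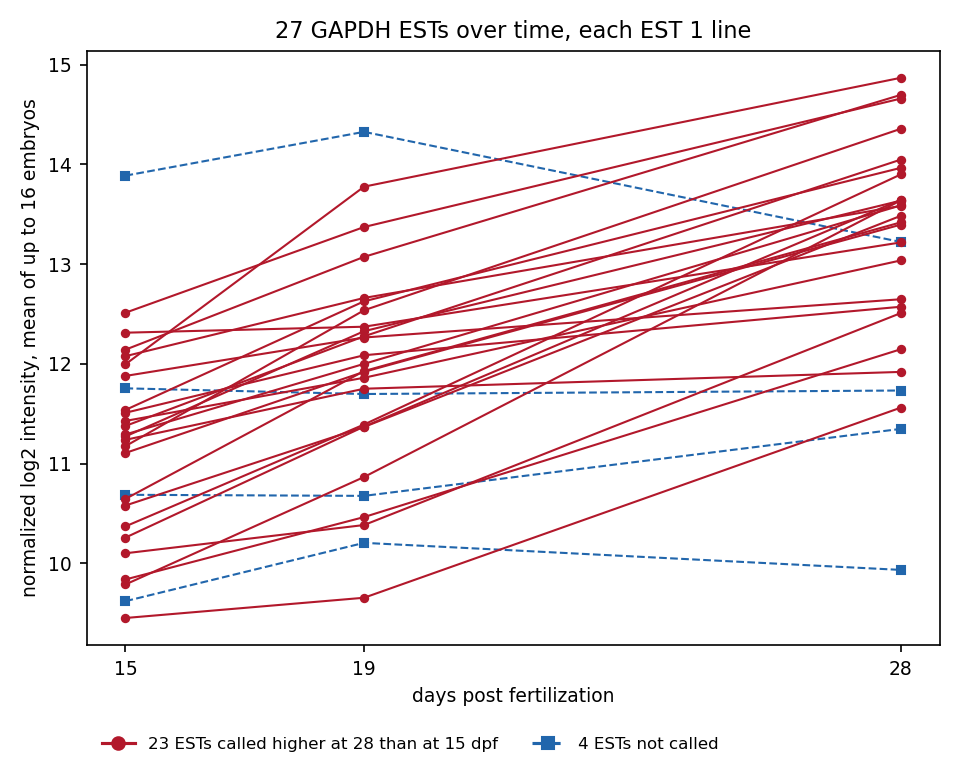
Mean normalized log2 intensity (y axis) of each of the 27 tested GAPDH ESTs at 15, 19 and 28 dpf (x axis, days), 1 line per EST, with up to 16 embryos behind each point. Solid lines mark the 23 ESTs called higher at 28 than at 15 dpf and dashed lines the 4 that were not called. The brightest of these 4, CA051001, had its highest mean at 19 dpf. Its mean at 15 dpf includes array 14, which stood far below the others.

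The EST with the largest rise was CA039027. Its levels were 8.70 to 11.02 with a median of 9.74 at 15 dpf (n = 16), 9.79 to 11.95 with a median of 10.87 at 19 dpf (n = 14) and 12.82 to 14.44 with a median of 13.92 at 28 dpf (n = 14). The later embryos were clear of all others, and the difference of 3.82 ± 0.30 from 15 to 28 dpf was a 14.1-fold change (limma adjusted p = 9.53e-13). Without background subtraction the difference was 2.37 (limma adjusted p = 3.51e-13). At 15 dpf this EST was above background in 3 of 16 embryos, so its fold change starts from a level near background. CA768062 rose by 3.53 ± 0.28, CB497681 by 3.39 ± 0.25 (2.04 without background subtraction) and CB510408 by 3.18 ± 0.24 over the same time, and all 3 were also called in each of both steps. CB510408 was the best detected of them at 15 dpf, in 12 of 16 embryos, with levels of 10.18 to 12.03 there and of 13.81 to 14.93 at 28 dpf.

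CA039233, named here after its values were seen as the GAPDH EST with the largest early rise, moved ahead of the others. Its levels were 10.55 to 12.89 at 15 dpf (n = 14), 13.09 to 14.31 at 19 dpf (n = 16) and 14.51 to 15.32 at 28 dpf (n = 16), with no overlap between any pair of ages. It rose by 1.76 ± 0.19 to 19 dpf (limma adjusted p = 3.89e-08) and by 1.09 ± 0.18 after it. CA051897 rose less. It went from a median of 12.34 at 15 dpf, with a range of 11.09 to 13.52 (n = 10), to 13.30 at 28 dpf, with a range of 11.68 to 14.14 (n = 14). The ages overlapped, and the difference of 1.05 ± 0.27 passed the test (adjusted p = 0.00322), but not with normalization within arrays only, where it was 0.64 (adjusted p = 0.112).

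CA051001, the brightest GAPDH EST, went the other way. Its levels were 13.84 to 14.91 at 19 dpf with a median of 14.30 and 12.27 to 14.07 at 28 dpf with a median of 13.29 (n = 16 each), a fall of 1.10 on the log2 scale (SE 0.27, limma adjusted p = 0.00444). At 15 dpf its median was 14.19, but both embryos of array 14 stood far below the other 14, at 10.77 and 11.97 against 13.68 to 15.17. The difference from 15 to 28 dpf was -0.67 ± 0.27 (adjusted p = 0.0509) with that array and -1.02 without it (adjusted p = 5.50e-05). It was also called without array 41, 38 or 37, at -0.73 (adjusted p = 0.0441), -0.74 (adjusted p = 0.0433) and -0.76 (adjusted p = 0.0369). Without background subtraction it was -0.70 (adjusted p = 0.00747), and with normalization within arrays only -1.08 (adjusted p = 0.00279). With poor spots kept, no dye term or no array block it stayed at -0.67 (adjusted p = 0.0494, 0.0471 and 0.02). With plain background subtraction it was -0.40 and not called (adjusted p = 0.308). The remaining ESTs that were not called, CA042354, CA038327 and BU965890, had differences of 0.67, 0.35 and 0.01.

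Phosphoglycerate kinase, the first step that yields ATP, was nearly flat. Of 3 ESTs CB505559 rose by 0.62 ± 0.25 from 15 to 28 dpf (limma adjusted p = 0.0488). The brightest, CA050974, had medians of 12.94, 12.74 and 12.90 at 15, 19 and 28 dpf, with embryos from 11.86 to 14.57 at the first age and from 12.30 to 13.12 at the last. These ranges overlapped and the difference was -0.18 ± 0.21.

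Phosphoglycerate mutase shifts the phosphate group within phosphoglycerate, and the spots named as form 1 did not behave alike. CB493667, described as phosphoglycerate mutase 1, climbed by similar amounts in both steps, which lasted 4 and 9 days. Its levels were 8.29 to 10.90 at 15 dpf with a median of 10.03. They were 10.34 to 12.55 at 19 dpf with a median of 11.57 and 12.47 to 13.85 at 28 dpf with a median of 13.35 (n = 16 each). All embryos of 28 dpf were above all of 15 dpf. The rise was 1.72 ± 0.22 before and 1.74 ± 0.22 after 19 dpf, 11.1-fold in all (limma adjusted p = 1.16e-16 from 15 to 28 dpf). Without background subtraction the difference from 15 to 28 dpf was 1.92 (limma adjusted p = 2.16e-15). The brightest EST of the same description, CA052837, stayed between 13.20 and 14.70 at all ages, with medians of 14.35, 14.15 and 13.98, and a difference of -0.33 ± 0.16 (adjusted p = 0.105). Of the other tested ESTs for form 1 CA042820 rose by 0.92 and CA054203 had a difference of 0.45 (adjusted p = 0.0546).

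The 1 tested EST for the muscle form, CK991079 (phosphoglycerate mutase 2), had levels of 10.49 to 12.63 at 15 dpf with a median of 11.97 (n = 14) and of 10.92 to 13.14 at 28 dpf with a median of 12.59 (n = 16). The ages overlapped. The rise of 0.59 ± 0.22 passed the test (limma adjusted p = 0.0358) but not without any 1 of arrays 14, 41, 36, 38, 28, 33 or 37, when it was 0.41 to 0.56 (adjusted p = 0.0624 to 0.159). Without array 23 it was 0.81 (adjusted p = 0.00129), and with normalization within arrays only it was -0.0798 (adjusted p = 0.837).

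Enolase makes phosphoenolpyruvate, and all 4 tested ESTs for beta-enolase rose from 15 to 28 dpf, by 1.70 to 3.07. Alpha-enolase, the form of most tissues in mammals, rose for 5 of 7 ESTs and gamma-enolase, the form of neurons in mammals, for 1 of 2. The brightest beta-enolase EST, CB494346, went from 10.07 to 13.30 with a median of 11.76 at 15 dpf (n = 16) and 11.60 to 12.46 with a median of 11.87 at 19 dpf (n = 12) to 11.72 to 14.52 with a median of 13.46 at 28 dpf (n = 16). The spread within an age was wide and the ages overlapped, and the rise of 1.70 ± 0.24 lay nearly all after 19 dpf (1.40 ± 0.27, limma adjusted p = 0.000306). CB492725 rose by 2.69 ± 0.27 (1.45 without background subtraction) and CA057166 by 3.07 ± 0.28.

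The brightest alpha-enolase EST, CB493928, was at 12.61 to 14.13 at 15 dpf with a median of 13.61 (n = 14) and at 13.76 to 14.50 at 28 dpf with a median of 14.09 (n = 16). Its rise was 0.57 ± 0.16 (limma adjusted p = 0.00523), and its difference before 19 dpf was -0.06 ± 0.18. With normalization within arrays only the former was 0.27 (adjusted p = 0.337). CK991176, another alpha-enolase EST, rose by 2.09 ± 0.22, more than 2 of the 4 beta-enolase ESTs, and by 1.25 without background subtraction. CA061915, described as enolase without a form, rose by 0.81 ± 0.17, which was 0.50 with normalization within arrays only (adjusted p = 0.107).

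Pyruvate kinase closes the pathway with the second step that yields ATP. In the main fit it was the only enzyme with members called in both directions between 15 and 28 dpf. For GAPDH, the fall of CA051001 missed the cut in that fit (limma adjusted p = 0.0509) and passed it in some other settings. Of 5 ESTs described as the muscle isozyme of pyruvate kinase, CB518099 rose by 1.19 ± 0.25 and CA056815 by 0.86 ± 0.28 between 15 and 28 dpf. CA051402 fell by 0.79 (SE 0.23, limma adjusted p = 0.0058), from levels of 10.86 to 12.78 with a median of 11.73 at 15 dpf (n = 16) to levels of 10.36 to 11.30 with a median of 10.89 at 28 dpf (n = 14). It was the 1 member called as lower, and its ages overlapped between 10.86 and 11.30. The brightest, CA054312, had medians of 12.58 at 15 dpf and 12.65 at 28 dpf and a difference of 0.22 ± 0.18. In mammals the gene of this name has a form of adult muscle and one of embryonic and many other tissues, and the spots do not tell them apart.

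The B chain of lactate dehydrogenase, in mammals the form of heart, changed by less than 2-fold. CA057499 went from a median of 13.02 (12.20 to 13.79) at 15 dpf to 13.47 (13.15 to 13.81) at 28 dpf, a rise of 0.52 ± 0.17 (limma adjusted p = 0.0163) that was 0.43 without array 41 (adjusted p = 0.0544). CK991317 rose by 0.79 ± 0.17, and CA055946 had a difference of 0.20 ± 0.17. With normalization within arrays only both calls were lost, at 0.114 for CA057499 (adjusted p = 0.721) and 0.17 for CK991317 (adjusted p = 0.561). D-3-phosphoglycerate dehydrogenase (CA057791) rose by 0.94 ± 0.36 (adjusted p = 0.0341) from levels of 8.40 to 10.95 to levels of 9.53 to 11.83, with 1 of 16 embryos above background at 15 dpf and 13 at 28 dpf. This call was lost without any 1 of arrays 13, 14, 17, 31, 41, 26, 39, 23 or 37, when the difference was 0.78 to 0.91 (adjusted p = 0.055 to 0.0998). It was 0.26 without background subtraction (adjusted p = 0.252) and 0.28 with normalization within arrays only (adjusted p = 0.576).

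Whether muscle forms gained on other forms of the same enzyme was tested on a log2 ratio formed within each array. It set the brightest muscle-named EST over the brightest other-named EST and was averaged over both channels. The embryos of an array shared their age, so the test compared ratios between arrays. The ratio itself has no meaning across probes, but its change does. Aldolase A gained on aldolase B. The ratio of CA062911 to CB502483 was -1.71 to -0.66 at 15 dpf (7 arrays), -0.93 to -0.15 at 19 dpf (6 arrays) and -0.27 to 0.24 at 28 dpf (5 arrays), and the arrays of 28 dpf lay above all of 15 dpf. It gained 1.10 on the log2 scale, 2.14-fold, with a 95% interval of 0.693 to 1.498 from the same test (exact two-sided permutation test, p = 0.00126, the smallest that 792 splits allow, and 0.00379 after Benjamini-Hochberg adjustment over 3 enzymes).

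**Figure D3:**
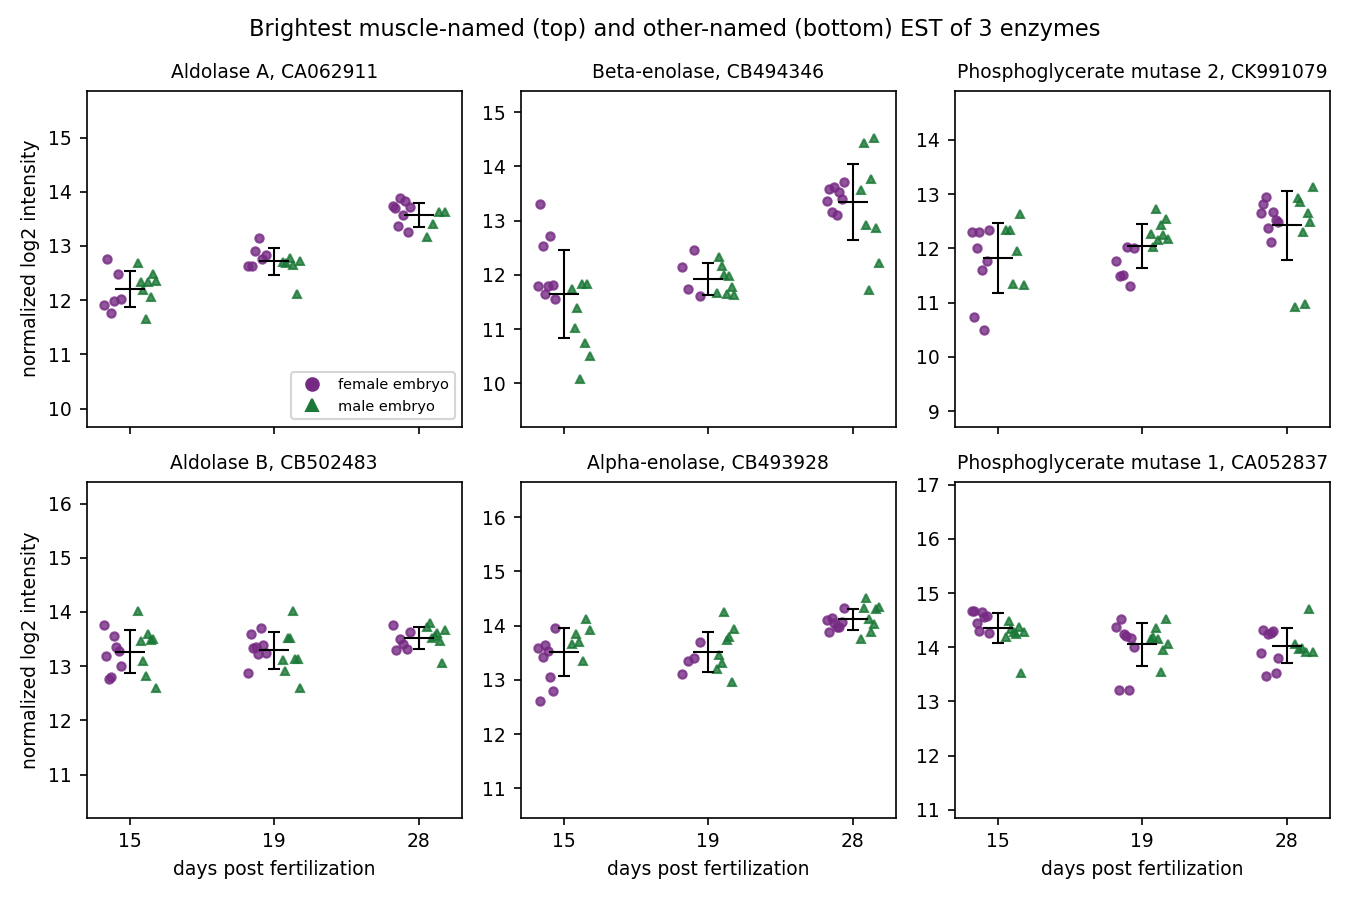
Normalized log2 intensity (y axis, the same span in each panel) in single embryos at 15, 19 and 28 dpf (x axis, days) for the brightest muscle-named EST (top row) and the brightest other-named EST (bottom row) of aldolase, enolase and phosphoglycerate mutase. Circles are female and triangles male embryos, and the bars give the mean ± 1 SD. Aldolase A at 28 dpf, from 13.17 to 13.89, lies above both earlier ages, while aldolase B spans 12.59 to 14.01 over all ages.

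The ratio of beta-enolase to alpha-enolase, CB494346 to CB493928, ran from -3.11 to 0.18 at 15 dpf (7 arrays) and from -2.26 to 0.29 at 28 dpf (8 arrays). The arrays overlapped. The gain of 0.91 had an interval of -0.14 to 1.93 (exact two-sided permutation test, adjusted p = 0.0819). Array 14 held the highest ratio of 15 dpf, and without it the gain was 1.22 (adjusted p = 0.0195). Without array 37 it was 1.12 (adjusted p = 0.0455). With the mean over all tested ESTs of each form in place of the brightest, beta-enolase gained 1.26 on the 9 ESTs for alpha- and gamma-enolase (adjusted p = 0.000466). A poor spot drops out of such a mean, so the ESTs averaged can differ between arrays. These means were taken with the main background correction only.

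The ratio of phosphoglycerate mutase 2 to 1, CK991079 to CA052837, ran from -4.002 to -1.942 at 15 dpf and from -3.05 to -0.76 at 28 dpf (7 arrays each). The gain was 0.97 with an interval of 0.14 to 1.81 (exact two-sided permutation test, adjusted p = 0.0341). Without any 1 of arrays 13, 17, 41, 26, 36, 38, 39 or 28 it was 0.83 to 0.98 (adjusted p = 0.0559 to 0.076). It depended on the EST chosen: with the mean of all 4 ESTs for form 1, which includes CB493667, the muscle form lost 0.47 instead (difference -0.47, adjusted p = 0.203). Poor spots drop out of this mean too. No pair could be set up for pyruvate kinase, whose R/L EST was not tested, or for lactate dehydrogenase, where only the B chain was found.

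**Figure D4:**
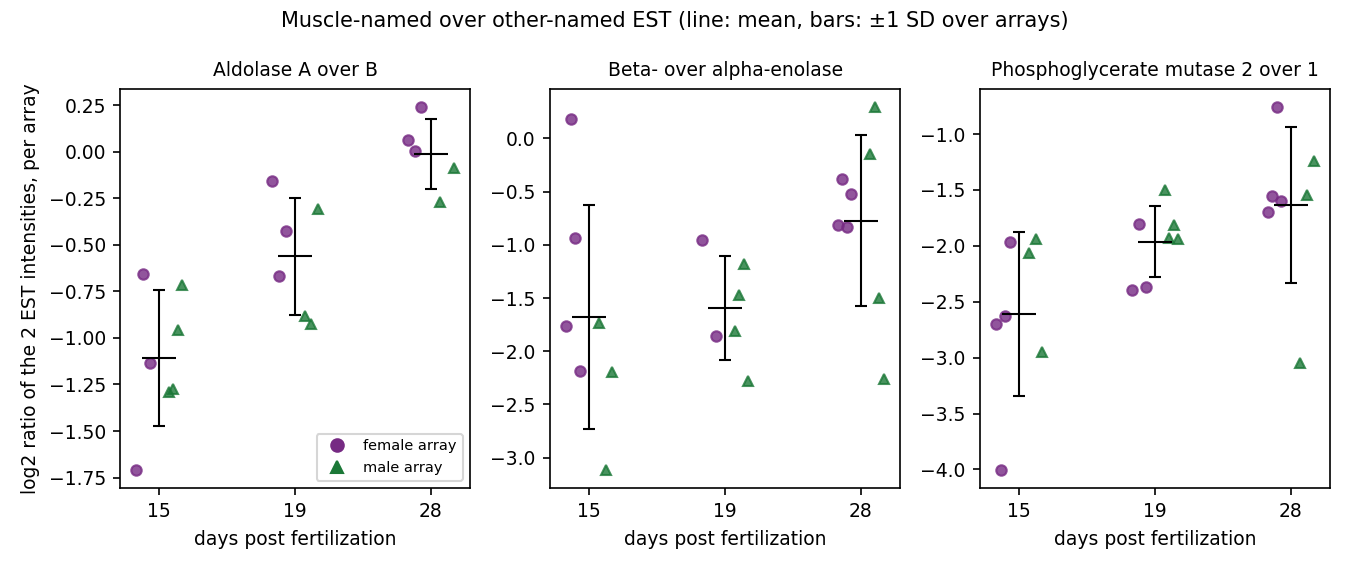
Log2 ratio of the muscle-named to the other-named EST (y axis, mean of both channels) for single arrays at 15, 19 and 28 dpf (x axis, days), with 1 panel each for aldolase, enolase and phosphoglycerate mutase. Circles are arrays of females, triangles arrays of males, lines means and bars ± 1 SD. For aldolase the 5 arrays of 28 dpf, from -0.27 to 0.24, lie above the 7 of 15 dpf, from -1.71 to -0.66.

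Markers of skeletal muscle, matched by their description, rose over the same time. Of 71 tested ESTs for myosins, troponins, parvalbumins, M-type creatine kinase and tropomyosin 67 rose from 15 to 28 dpf and 0 fell, with a median difference of 2.53. The mean level of the list was 10.99 to 11.34 in embryos of 15 dpf, 11.34 to 12.63 at 19 dpf and 13.41 to 14.07 at 28 dpf. Parvalbumin beta 1 (CB510281) was above background in 0 embryos of 15 dpf and 16 of 28 dpf. Its mean level was 28.1-fold higher at 28 dpf, from a signal at 15 dpf that did not count as detected. For the 10 tested muscle ESTs detected in 0 embryos at 15 dpf, the change starts from a signal below detection. Markers of the lens also rose (41 of 42 ESTs for crystallins, median 2.09), while hemoglobins, the markers of erythrocytes, fell for 18 of 53 and rose for 5. No list of markers was at 0 as a whole: 11 of 79 listed muscle ESTs were above background in 0 embryos at 15 dpf, and 2 at 28 dpf. Calls also went in both directions in the lists for liver (14 of 45 rose, 4 fell), nervous system (4 of 26 rose, 7 fell) and pancreas (7 of 25 rose, 2 fell). Among all ESTs tested 19.1% rose and 18.4% fell over the same time, the shares to set beside the counts of every list. Because words were matched, these counts include ESTs that are not markers of the tissue. The muscle list holds thymic parvalbumin (CB496913, 1.03), tropomyosin alpha-4 chain (CB497285, 2.11) and troponin C-akin-1 protein (CA043808, -0.02), whose descriptions do not name skeletal muscle. Neurotrypsin (CA059835, 1.12) is in the pancreas list. Sphingomyelin phosphodiesterase 4 (CB512145, -0.71) and myelin expression factor 2 (CB496664, 1.10) are in that for the nervous system. In RNA of whole embryos a larger number of muscle cells and more RNA per cell cannot be told apart. The part of the muscle markers, the lens markers and the signal over background in the changes of the glycolytic ESTs was not tested.

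Other steps of sugar metabolism did not share a common direction between 15 and 28 dpf. Hexokinase-2 (CA063261), which traps glucose in the cell, rose by 0.63, and hexokinase-1 (CA042911) had a difference of -0.23. Phosphofructokinase, the main control point of glycolysis, rose for 2 of 8 ESTs, a type C (CA057770) and a liver type (CA042530). These were above background in 0 and 4 embryos of 15 dpf. The enzyme fell for 1 EST, a muscle type (CB498267, -0.85). The other tested muscle types, CB510508 and CA039216, had differences of -0.81 (limma adjusted p = 0.0514) and 0.51 (limma adjusted p = 0.19). The 4 tested glucose transporter ESTs had no call. Both ESTs for phosphoglucomutase-1, which links glycogen to glycolysis, rose, CA060790 by 2.33 and CB492827 by 1.18. CA060790 was above background in 0 embryos of 15 dpf. Glycogen phosphorylase rose for 2 of 5 ESTs, a brain form (CA048957, 0.45) and a muscle form (CB494589, 1.61). These were above background in 7 and 3 embryos of 15 dpf. The other tested muscle forms, CA053075, CA052042 and CB517819, were not called, with differences of -0.40, -0.12 and -0.45. Pyruvate dehydrogenase rose for 2 of 3 ESTs, CA062276 and CA057843, which were above background in 1 and 0 embryos of 15 dpf. Glycerol-3-phosphate dehydrogenase rose for 1 of 5 ESTs, CB496919, which was above background in 4 embryos of 15 dpf. Of the enzymes that build glucose, the mitochondrial phosphoenolpyruvate carboxykinase (CA058875) fell by 1.09, fructose-1,6-bisphosphatase isozyme 2 (CB496932) rose by 2.08, and a fructose-1,6-bisphosphatase-like EST (CA052094) fell by 0.49. Monocarboxylate transporter 6 (CA053630) fell by 0.53, and hypoxia-inducible factor 1 alpha (CA058643), which drives glycolytic genes under low oxygen in mammals, had a difference of -0.11 ± 0.17.

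The study compared females with males at each age and genotype, by an overall test of all treatments at FDR 0.05 followed by an FDR of 0.2 over all 66 pairwise contrasts. By this rule 25 of 78 members, or 32.1%, were called in at least 1 of the 6 comparisons of the sexes, against 9.58% of all ESTs. The overall test also responds to age: 55.1% of the members passed it and 13.6% of all ESTs, and of those that passed, 58.1% of the members and 70.4% of all ESTs were called between the sexes. Of the 42 calls 26 were higher in males and 16 in females. They were 11 and 9 in OSU/CW and OSU/OSU at 15 dpf, 11 and 6 at 19 dpf, and 2 and 3 at 28 dpf, where the rule called 2.8% and 2.07%, 5.33% and 2.87%, and 1.18% and 1.26% of all ESTs. At an FDR of 0.05 within each of the 6 comparisons limma called 0 members. No share of all ESTs was computed at that threshold, so this 0 cannot be set against all ESTs. For both genotypes together 10, 11 and 5 members had an unadjusted limma p under 0.05 at 15, 19 and 28 dpf, counts that were not set against all ESTs. With both genotypes together 0 members were called in limma at FDR 0.05 at any age, against 0.00858%, 0% and 0.00858% of all ESTs.

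**Figure D5:**
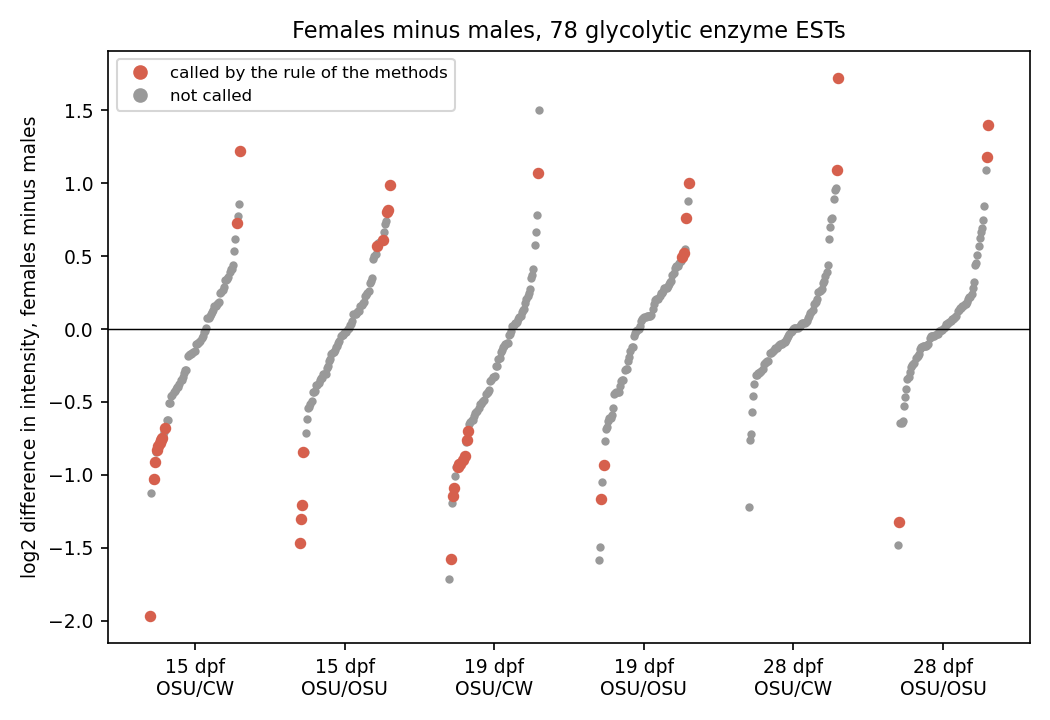
Log2 difference in intensity of females minus males (y axis) for the 78 tested ESTs in each combination of age and genotype (x axis), sorted within a column, 1 point per EST. Coloured points were called by the rule of the methods, 11, 9, 11, 6, 2 and 3 from left to right, and most values lie within 1 of 0.

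The 6 ESTs with the smallest p among these calls had few embryos per sex. CK991176 (alpha-enolase) at 19 dpf in OSU/CW had 9.64, 9.83 and 10.79 in females and 11.10, 11.63, 11.83 and 12.10 in males, with no overlap, a difference of -1.58 ± 0.37 and an unadjusted p of 0.000125 in limma (adjusted p = 0.277 within the comparison). All 3 female spots were below the detection limit. CA051897 (GAPDH) at 15 dpf in OSU/CW had 11.09 and 11.10 in the 2 usable females and 12.22, 12.96 and 13.15 in 3 males, a difference of -1.97 ± 0.49 (adjusted p = 0.397). Its OSU/OSU embryos, from the same arrays, were at 11.39 and 11.86 in females (array 17 below background in both genotypes) and 12.46, 13.39 and 13.52 in males.

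CK991317 (lactate dehydrogenase B) was higher in females at 15 dpf. In OSU/OSU its levels were 12.05, 12.30, 12.55 and 12.63 in females and 11.23, 11.53 and 12.01 in males, which did not overlap, and the difference was 0.99 ± 0.28 (limma adjusted p = 0.696). CB492725 (beta-enolase) pointed the other way in the same embryos, with a difference of -1.47 ± 0.44 (adjusted p = 0.72), and only the 2 brightest males were above background. CB494346, a second beta-enolase EST, was higher in females than in males of OSU/CW at 15 dpf, at 11.65 to 13.30 against 10.07 to 11.73. That difference was 1.22 ± 0.39 (adjusted p = 0.498), so ESTs of the same name differed in sign. CB493667 (phosphoglycerate mutase 1) at 19 dpf in OSU/CW was at 10.34 to 11.59 in females and 11.57 to 12.55 in males, a difference of -1.09 ± 0.35 (adjusted p = 0.3).

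The genotypes at the locus, compared within arrays, did not differ detectably for any member. At 15, 19 and 28 dpf 0 of 78 members were called between OSU/CW and OSU/OSU in limma at FDR 0.05, and 0% of all ESTs. The smallest adjusted p was 0.815, 0.747 and 0.916, and 5, 7 and 3 members had an unadjusted p under 0.05, counts that were not set against all ESTs. The differences, OSU/CW minus OSU/OSU, ran from -0.60 to 0.52 at 15 dpf, from -0.38 to 0.58 at 19 dpf and from -0.76 to 0.52 at 28 dpf. The change of the sex difference over time was called for 0 members in limma, against 0.00858% of all ESTs, with 9 at an unadjusted p under 0.05, and that of the genotype difference for 0, with 5. The counts at an unadjusted p were again not set against all ESTs.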

How the data were processed

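Embryo RNA was compared on 2-colour cDNA arrays, and the labels give sex, genotype, age and dye of each channel. The authors deposited a linear spot intensity and local background intensity per channel, which were used here. They also deposited a score per array and spot in a value table, which matched the quotient of the centred logs of the channels within 1e-04 for at least 99.95% of spots. Its column medians ran from -1.10 to 1.07. A quotient of logs is not a log ratio, so it was not used for tests. Versions of the authors' image software are not given there either.

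Background was corrected with normexp (offset 50), arrays were normalized by loess within and Aquantile between arrays in limma 3.58.1 (R 4.3.3), and spots with a poor flag were set to missing. Spots of 1 identifier were averaged (37 identifiers). An EST was detected in an embryo above the 90th percentile of 1003 negative control spots. It was tested if detected in at least 16 of 48 embryos and usable on 2 or more arrays for every combination of sex and age. Fits without 1 array kept the correlation of the full fit. The limma model had the 12 combinations of sex, genotype and age and the dye, with the array as a random block (correlation 0.533). P-values were adjusted over all 11651 ESTs by Benjamini-Hochberg. The median SE of a difference from 15 to 28 dpf was 0.241, and the number of arrays limits the precision. Embryos of a group came from 1 family, so p-values measure the spread between its embryos.

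Isoform ratios were compared by exact permutation of arrays. Members, lists and tests were chosen with earlier results of these data known. Named with values are CA051897, the brightest tested EST of each enzyme and form, the 5 largest called rises, the called falls and the 6 smallest p-values among calls between the sexes; others are named for a count or a stated feature. Of 4128 member values 280 were missing as poor. Alternatives changed background correction, normalization, filters, dye and block terms, thresholds and the arrays included.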

Additional observations from a re-analysis of the deposited data

Results flagged for a closer look

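The mean of both channels was compared across the 8 arrays of an age for each named EST, and 5 of 72 sets held an array whose gap to the next was large against the range of the set by Dixon's test, which flags about 1 set in 20 by chance. CA051001 (GAPDH) was flagged at 15 dpf, where array 14 of females was at 11.37 and the others at 13.88 to 14.74, and at 19 dpf, where array 40 of females was at 14.77 and the others at 14.07 to 14.34. CK991079 (phosphoglycerate mutase 2) was at 10.94 on array 23 of males at 28 dpf, against 12.38 to 12.79 on the others. CA039027 (GAPDH) was at 10.14 on array 10 of females at 19 dpf, against 10.76 to 11.16 on the 6 other usable arrays. CA768062 (GAPDH) was at 12.31 on array 33 of males at 28 dpf, against 13.72 to 14.51. Genotype differences of opposite sign in all arrays of the sexes were found in 0 of 66 sets.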

How the results depend on the processing

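Genotypes were compared within arrays, with the array as a block. No paired analysis was possible because the groups of arrays, which differ in age or sex, share no replicate numbers. The 14 members called from 15 to 19 dpf became 9 without background subtraction, 3 with loess within arrays only, 2 of the 15 members detected in all 48 embryos (5.07% of all such ESTs called), 23 with no array block (8.92% of all ESTs), 9 with only the arrays compared, 7 at FDR 0.01, and 3, 2, 5 and 2 within OSU/CW females, OSU/OSU females, OSU/CW males and OSU/OSU males. Leaving out 1 array gave 8 (without array 11) to 15, with 9 without array 40. From 19 to 28 dpf the 48 calls became 7 of the 15 detected in all embryos (12.3%), and 28, 14 and 29 within OSU/OSU females, OSU/CW males and OSU/OSU males. Leaving out 1 array gave 41 to 49. No share of all ESTs was computed for the 19 to 28 dpf counts within a sex and genotype. The same holds for counts with 1 array left out, only the arrays compared, FDR 0.01 or, between the sexes, FDR 0.05 within each comparison. Drops in these counts can therefore not be set against all ESTs. From 15 to 28 dpf the 57 became 7 of those 15 (27.4%) and 37 within the males of either genotype, and leaving out 1 array gave 54 to 58. With loess within arrays only, the median of all ESTs from 15 to 28 dpf was -0.54 and that of the members 0.52, with 35 rises and 4 falls, where 42.4% of all ESTs were called in either direction. The 25 members called between the sexes became 15 with loess only (11.3%), 4 of those 15 (7.85%), 0 with only the arrays compared and 0 at FDR 0.05 within each comparison, and leaving out 1 array gave 21 to 32. Genotype calls stayed at 0 in the alternatives run, and so did sex by time and genotype by time when 1 array was left out. Sex by time had 1 call with no array block. The gain of aldolase A over B was 1.27 within females (adjusted p = 0.15) and 0.88 within males (adjusted p = 0.2). So few usable arrays remain within either sex that the exact permutation test could not give a p under 0.05 for this pair. With 1 array left out the gain was 0.995 to 1.17. That of beta-enolase over alpha-enolase was 1.01 with poor spots kept (adjusted p = 0.0465), 1.26 over alpha- and gamma-enolase with means over all ESTs, and 0.67 to 1.22 with 1 array left out. That of phosphoglycerate mutase 2 over 1 was 0.67 without background subtraction, 0.56 with plain subtraction, 0.53 with loess only, 1.42 within females, 0.38 within males and -0.47 with means over each form, and 0.74 to 1.21 with 1 array left out. Of 825 values of 24 named ESTs under alternatives, 775 kept direction and side of the threshold, 29 lost the call, 16 gained one and 5 changed sign: with loess only CK991079 at -0.0798, CB502483 at -0.159 and CA054312 at -0.41, and with plain subtraction CA050974 at 0.173 and CA052837 at 0.125. Apart from the alternatives whose construction leaves fewer ESTs or arrays, the cause was not tested. Signal over background, with a median of 1.52 at 15 dpf, limits the folds of dim ESTs.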
